A study of Homo sapiens with 10 samples.

Results

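The 38 genes described here encode cytokines, chemokines, subunits and inhibitors of NF-kappaB and a set of its classical target genes. They were chosen by name to ask whether activation of liver X receptors (LXRs) lowered inflammatory gene expression in a tumour cell. All 38 were found among the 62656 genes of the deposited expression table, 37 by their listed name and 1 (SOD2) by its gene identifier. RNA came from PC3, a human prostate cancer line established from a bone metastasis, so all values come from a single established line grown alone. After overnight starvation, the cells received either 1 µM of GW3965, a synthetic agonist of both LXRs, or the vehicle DMSO for 24 h, with 5 libraries per condition. No inflammatory stimulus is named in the labels, so the levels are those of cells given no named stimulus. The labels do not state whether the libraries came from separate cultures, so the p-values measure the spread between these libraries, which may be technical.

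NF-kappaB is a family of dimeric transcription factors that is held in the cytoplasm by IkappaB proteins. Cytokine receptors and Toll-like receptors activate the IkappaB kinase, IkappaB is degraded, and the freed dimers enter the nucleus and bind kappaB sites in promoters and enhancers. Many of the induced genes encode inhibitors of the same pathway, among them NFKBIA (IkappaB alpha) and TNFAIP3 (A20), which close a negative feedback loop. LXRs are nuclear receptors for oxysterols that pair with RXR and activate genes of cholesterol export from DR4 elements. In macrophages, they are also known to restrain the induction of inflammatory genes.

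Values are RPKM, that is reads per kilobase of gene scaled between libraries. Of the 38 genes, 23 had a mean of at least 0.5 RPKM and were tested, and 15 lay under this limit. The libraries held from 30431690 to 41638859 reads, from 30612230 to 39387348 in DMSO and from 30431690 to 41638859 in GW3965. The 4 known LXR target genes, ABCA1, ABCG1, SREBF1 and MYLIP, rose with log2 fold changes from 0.74 to 2.29 (limma adjusted p from 0.00012 to 0.0071). DMSO library 1 stood apart for ABCA1, at 5.75 RPKM against 2.50 to 3.20 RPKM in the other DMSO libraries. It was also the highest DMSO library for ABCG1, at 2.16 RPKM against 1.21 to 1.75 RPKM. For SREBF1 and MYLIP, DMSO library 4 was the highest. The lowest GW3965 library was at 14.1 RPKM for ABCA1 and 5.97 RPKM for ABCG1. The PC3 and epithelial genes KRT8, KRT18 and VIM were at 36.8, 49.8 and 65.6 RPKM in DMSO, and the luminal product KLK3 was listed at 0 in all libraries. CDH1 was at 0.249 RPKM and EPCAM at 1.57 RPKM in DMSO. The summed level of 6 leucocyte markers lay between 0.295 and 0.525 RPKM in DMSO and between 0.316 and 0.555 RPKM in GW3965, with CSF1R at 36 to 57 reads, PTPRC at 14 reads or fewer and CD3E at 1 read or fewer in every library. The summed level of 5 fibroblast and endothelial markers lay between 0.672 and 0.778 RPKM in DMSO and between 0.43 and 0.849 RPKM in GW3965, with PECAM1 at 112 to 218 reads and VWF at 6 reads or fewer in every library.

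RefSeq promoter windows of 300 bases (GRCh38.p14, 250 before to 50 after the start) were at hand for 30 of the 38 genes. The kappaB consensus, searched on both strands, was present in 15 of these 30 windows and in 1562 of all 27305 windows (5.72%). The shorter core GGGANNNNCC was present in 20 of the 30 (66.7%) and in 25.1% of all windows, and a consensus match can also be a core match. CXCL1, CXCL2, CXCL3, CXCL5 and CXCL6 are shown because their windows held the same palindromic match of 11 bases, in which the consensus is read on both strands. NFKBIA is shown because it had the lowest p-value of the 38 genes. Each sequence is in the direction of transcription, with the match in capitals and 20 flanking bases on each side.
CXCL1 (chr4:73869294-73869344, plus strand): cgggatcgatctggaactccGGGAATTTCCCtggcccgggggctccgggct
CXCL2 (chr4:74099243-74099293, minus strand): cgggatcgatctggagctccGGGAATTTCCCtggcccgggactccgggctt
CXCL3 (chr4:74038738-74038788, minus strand): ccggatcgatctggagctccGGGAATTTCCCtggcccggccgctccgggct
CXCL5 (chr4:73998738-73998788, minus strand): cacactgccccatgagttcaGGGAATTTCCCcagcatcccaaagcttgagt
CXCL6 (chr4:73836568-73836618, plus strand): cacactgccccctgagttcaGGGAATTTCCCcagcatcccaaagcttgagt
NFKBIA (chr14:35404801-35404850, minus strand): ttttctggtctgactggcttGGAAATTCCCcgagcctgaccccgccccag

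The match began 79 bases before the start of CXCL1 and CXCL3, 78 before CXCL2, 91 before CXCL5, 90 before CXCL6 and 81 before NFKBIA. Over these 51 bases, CXCL5 and CXCL6 were identical at 50 positions (98.0%), CXCL1 and CXCL3 at 47 (92.2%), and CXCL1 and CXCL5 at 23 (45.1%). These counts include the 11 bases of the match, which are the same by selection and raise each share. Genes with the same match were at different levels. In DMSO, CXCL1 was at 3.08 ± 0.442 RPKM and CXCL6 at 2.27 ± 0.476 RPKM, while CXCL5 was at 0.124 ± 0.048 RPKM (SD, n = 5 libraries, as for all values with ±). TNFAIP3 and BIRC3 had 2 separate consensus matches each, and NFKBIZ, NFKB1, BCL3, IL6, IL32, LTB and CCL20 had 1 stretch each. IL1A, IL1B, CXCL8 and ICAM1 were among the 15 genes whose windows held none, which says only that these letters are not in this window. For CXCL16, CCL2, CX3CL1, LIF, CSF1, CSF3, NFKBIE and RELB, no window of this length was at hand, so they could not be searched.

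The element of LXRs, DR4, was searched as a repeat of AGGTCA with 4 bases between the copies and at most 1 mismatch in each copy, on both strands. It was found in 0 of the 30 windows and in 1.40% of all windows, so its absence does not set the 30 apart. Of the LXR target genes, SREBF1 and MYLIP had windows with a kappaB consensus match but no DR4 match, although both rose with GW3965. The window of ABCA1, the cholesterol exporter, held a DR4 match and is shown with it in capitals.
ABCA1 (chr9:104928189-104928244, minus strand): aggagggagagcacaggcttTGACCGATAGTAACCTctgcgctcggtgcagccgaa

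None of these genes passed the threshold between GW3965 and DMSO. Of the 23 tested genes, 10 had a higher and 13 a lower mean with GW3965, and their median log2 fold change was -0.017 (-0.53 to 0.36), against 0.0034 over the 20402 genes tested in all, of which 51.1% were higher. A log2 fold change within 0.2 of zero was found for 18 of the 23 genes and for 78.3% of all tested genes. The threshold, an adjusted p of 0.05 (limma with Benjamini-Hochberg adjustment), was passed by 0 of the 23 genes, against 0.157% of all tested genes, which is 32 genes. At an unadjusted limma p under 0.05, there was 1 higher gene, NFKBIA (4.64% of all tested genes were higher at this level), and 2 lower genes, IL1B and CXCL16 (2.36% of all). In bulk RNA, fewer expressing cells and less RNA per cell cannot be told apart for any of these values.

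**Figure D1:**
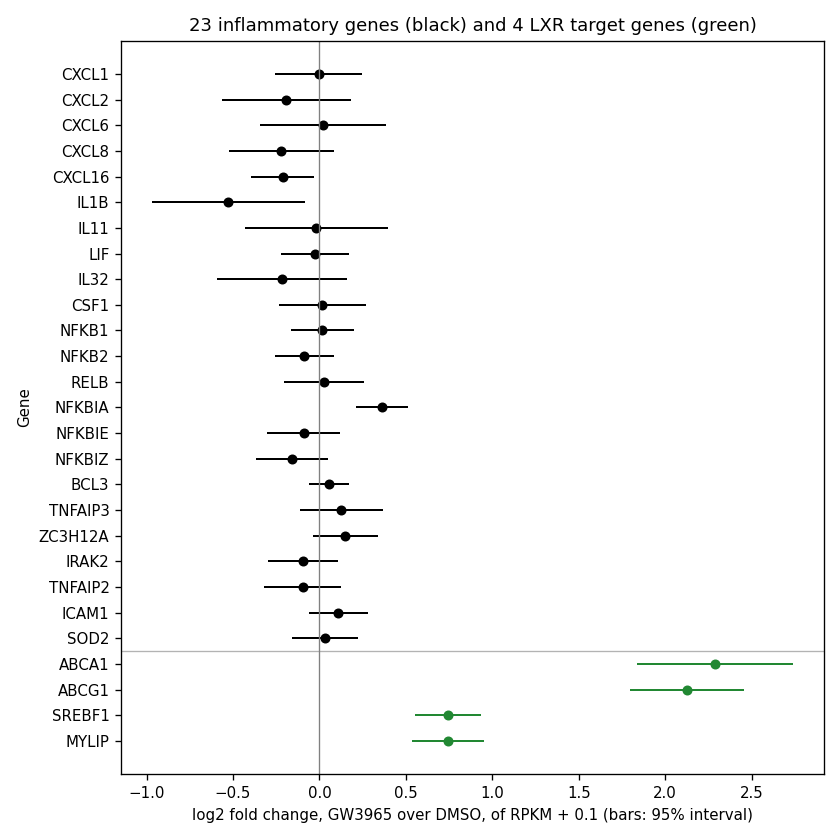
The x axis shows the log2 fold change of RPKM + 0.1 (GW3965 over DMSO) with its 95% interval for the 23 tested genes in black, ordered by role, and for 4 LXR target genes in green. NFKBIA lies above zero with its whole interval and IL1B and CXCL16 below it, while the LXR target genes lie between 0.74 and 2.29.

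The IkappaB proteins held the gene with the highest log2 fold change of the 23, NFKBIA. NFKBIA, which retains NF-kappaB in the cytoplasm and is itself a direct NF-kappaB target, was at 13.4, 14.7, 15.6, 16.03 and 12.9 RPKM in DMSO libraries 1 to 5. It was at 18.4, 18.2, 19.0, 18.8 and 18.9 RPKM in GW3965 libraries 1 to 5. No DMSO library reached the lowest GW3965 library, which held for 1.35% of all tested genes. The means were 14.6 ± 1.34 and 18.7 ± 0.331 RPKM, and the log2 fold change was 0.36 (SE 0.065, 95% interval 0.22 to 0.50, limma adjusted p = 0.077; exact permutation p = 0.0079). NFKBIA was therefore just outside the threshold in the test as set. It passed with limma's voom, which works on recovered reads (adjusted p = 0.036) and without DMSO library 4 (adjusted p = 0.043), and over all alternatives its adjusted p ran from 0.021 to 0.66. Exact permutation p-values, here and below, are unadjusted, and 0.0079 is the smallest that 5 against 5 libraries allow.

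None of the other IkappaB proteins had an unadjusted p under 0.05. NFKBIZ and BCL3 are atypical, nuclear members that modulate NF-kappaB on DNA. NFKBIZ was at 9.99 ± 1.08 RPKM in DMSO and 8.95 ± 1.04 RPKM in GW3965, with a log2 fold change of -0.16 (SE 0.093, 95% interval -0.36 to 0.047). BCL3 was at 7.02 ± 0.237 and 7.30 ± 0.282 RPKM, and its log2 fold change of 0.056 had the smallest standard error of the 23 tested genes, 0.050. NFKBIE, the epsilon inhibitor, was at 3.67 ± 0.467 and 3.43 ± 0.278 RPKM, with a log2 fold change of -0.090 (SE 0.093). The groups overlapped for all of these.

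The 3 subunits among the genes gave no call. NFKB2, the precursor of the subunit of the non-canonical pathway, was the highest of them. It was at 5.17, 5.47, 6.26, 6.25 and 5.40 RPKM in DMSO and at 4.78, 5.25, 5.67, 5.47 and 5.66 RPKM in GW3965. The groups overlapped, and the log2 fold change was -0.087 (SE 0.075, 95% interval -0.25 to 0.078, adjusted p = 0.90). NFKB1 was at 2.20 ± 0.162 and 2.23 ± 0.189 RPKM (log2 fold change 0.017, SE 0.080). RELB, the partner of NFKB2 in the non-canonical pathway, was at 1.47 ± 0.212 and 1.49 ± 0.107 RPKM (log2 fold change 0.027, SE 0.10).

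Among the interleukins, IL1B had the lowest log2 fold change of the 23 tested genes, without passing the threshold. It encodes the beta form of interleukin-1, a fever-inducing cytokine that acts on its neighbours through IL1R1. IL1B was at 0.712, 1.39, 1.36, 0.803 and 0.882 RPKM in DMSO and at 0.577, 0.707, 0.667, 0.563 and 0.810 RPKM in GW3965. All GW3965 libraries lay below the DMSO mean, but GW3965 library 5 lay above DMSO libraries 1 and 4, so the groups overlapped. The means were 1.03 ± 0.321 and 0.665 ± 0.101 RPKM, from 553 and 359 reads in all, with a log2 fold change of -0.53 (SE 0.20, 95% interval -0.96 to -0.090, limma adjusted p = 0.58; exact permutation p = 0.032). DMSO libraries 2 and 3 held the high values.

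IL1A, the alpha form of interleukin-1 and the chromosomal neighbour of IL1B, was under the limit for the test at 0.178 RPKM. Its reads were 17, 27, 12, 13 and 13 in DMSO and 10, 11, 8, 8 and 10 in GW3965. In RPKM, this was 0.244, 0.316, 0.197, 0.169 and 0.199 in DMSO and 0.146, 0.136, 0.105, 0.112 and 0.153 in GW3965. Every GW3965 library lay below every DMSO library, which held for 0.481% of the 24105 genes that averaged 10 reads or more. The means were 0.225 ± 0.0575 and 0.130 ± 0.0211 RPKM (exact permutation test, two-sided p = 0.0079, the smallest that 5 against 5 libraries allow, unadjusted). With limma's voom on genes of at least 10 reads, the log2 fold change was -0.76 (SE 0.29) and the adjusted p = 0.64. This gene lies at chr2:112773915-112784590 and IL1B at chr2:112829751-112836903, both on the minus strand (GRCh38, GENCODE 29).

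LIF, a cytokine that signals through IL6ST and LIFR, was the highest of all 38 genes. It was at 29.3, 30.3, 32.3, 28.0 and 24.4 RPKM in DMSO and at 30.0, 30.6, 25.4, 25.5 and 30.1 RPKM in GW3965. This level exceeded that of 92.6% of all tested genes. The groups overlapped fully, with means of 28.9 ± 2.96 and 28.3 ± 2.62 RPKM and a log2 fold change of -0.027 (SE 0.087, 95% interval -0.22 to 0.16). The related IL11 was at 0.761 ± 0.155 and 0.754 ± 0.169 RPKM. IL32, a cytokine of epithelial and natural killer cells, was at 2.83 ± 0.63 and 2.40 ± 0.475 RPKM, with a log2 fold change of -0.22 (SE 0.17, adjusted p = 0.87).

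IL6 and IL24 were near the bottom of what these libraries could read. IL6 had 26, 18, 20, 11 and 6 reads in DMSO and 13, 7, 12, 3 and 10 reads in GW3965. Its means were 0.107 ± 0.0558 and 0.0587 ± 0.0279 RPKM, and the groups overlapped (exact permutation p = 0.13). IL6 overlaps 2 annotated genes on the opposite strand, and 15.3% of its stretches of 50 bases were shared with AC073072.1. IL24 had from 5 to 7 reads per library in DMSO and from 1 to 6 in GW3965 (exact permutation p = 0.040, unadjusted, over 14 such tests). This p was lost without any of 8 of the 10 libraries, and ran from 0.0079 to 0.087 over the alternatives.

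**Figure D2:**
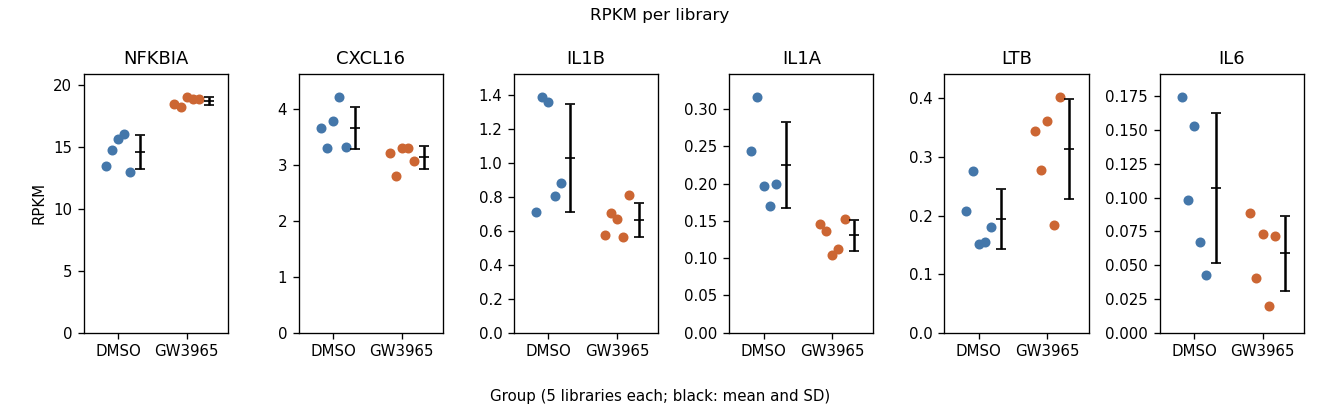
Each panel shows the RPKM of a gene in the 5 DMSO and 5 GW3965 libraries (points), on an axis from 0, with the mean and SD in black. For NFKBIA, all GW3965 libraries lie above all DMSO libraries, for CXCL16 and IL1A all lie below, and for IL1B, LTB and IL6 the groups overlap.

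The neutrophil-attracting CXC chemokines, which signal through CXCR1 and CXCR2, were low to moderate in PC3 and showed no call (lowest adjusted p = 0.82). CXCL1 was at 2.40, 3.15, 3.54, 3.38 and 2.95 RPKM in DMSO and at 2.79, 2.81, 2.87, 3.21 and 3.65 RPKM in GW3965. The groups overlapped, and each group held 746 reads in all. Its log2 fold change was -0.0036 (SE 0.11, 95% interval -0.25 to 0.24). CXCL8, the best known neutrophil attractant of this family, was at 1.74 ± 0.278 and 1.48 ± 0.256 RPKM, with a log2 fold change of -0.22 (SE 0.13, 95% interval -0.52 to 0.076). CXCL6 was at 2.27 ± 0.476 and 2.31 ± 0.497 RPKM, and CXCL2 at 0.896 ± 0.166 and 0.774 ± 0.159 RPKM (log2 fold change -0.19, SE 0.17).

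CXCL3 and CXCL5 lay under the limit. CXCL3 had from 21 to 47 reads per library, with means of 0.429 ± 0.109 and 0.439 ± 0.151 RPKM. CXCL5 had from 5 to 19 reads, with means of 0.124 ± 0.048 and 0.182 ± 0.0377 RPKM (exact permutation p = 0.056). In part, these genes share sequence: 12.5% of the stretches of 50 bases in CXCL2 transcripts, 6.01% in CXCL3 and 4.81% in CXCL1 also occurred in another member of the 3. Reads from there cannot be assigned between them with certainty.

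Of the other chemokines, CXCL16 was the only one above the limit. It is made as a membrane-bound protein, is shed by ADAM10 and binds CXCR6. It was at 3.66, 3.31, 3.796, 4.21 and 3.31 RPKM in DMSO and at 3.21, 2.81, 3.30, 3.30 and 3.07 RPKM in GW3965. The groups did not overlap, but only just: the lowest DMSO library was at 3.311 RPKM and the highest GW3965 library at 3.300 RPKM. GW3965 lying wholly below DMSO held for 0.49% of all tested genes. The means were 3.66 ± 0.376 and 3.14 ± 0.204 RPKM, with a log2 fold change of -0.21 (SE 0.080, 95% interval -0.39 to -0.036, limma adjusted p = 0.58; exact permutation p = 0.0079). That exact p, unadjusted, follows from the lack of overlap alone. CXCL16 overlaps MED11 on the opposite strand, and 2.37% of its stretches of 50 bases were shared with other genes.

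CCL2, CCL20 and CX3CL1, which attract monocytes, CCR6-positive lymphocytes and CX3CR1-positive cells, were hardly read. CCL2 had from 0 to 7 reads and CX3CL1 from 2 to 9 reads per library. CCL20 had 0 reads in every DMSO library, which allows up to 3 reads in each by counting error alone, and 1 and 4 reads in GW3965 libraries 1 and 5.

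Of the colony-stimulating factors, CSF1, which drives macrophage survival through CSF1R, was the only one above the limit. It was at 1.37, 1.495, 1.55, 1.078 and 1.30 RPKM in DMSO and at 1.53, 1.44, 1.22, 1.25 and 1.43 RPKM in GW3965. The groups overlapped, with a log2 fold change of 0.018 (SE 0.11, 95% interval -0.23 to 0.26). CSF2 had from 0 to 6 reads and CSF3 from 0 to 16 reads per library.

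TNF, the prototype activator of the pathway, had 1 read in all 10 libraries together, in DMSO library 2, and no fold is given. LTB, which forms the lymphotoxin heterotrimer that activates the non-canonical pathway through LTBR, had 11, 18, 7, 9 and 9 reads in DMSO and 18, 17, 21, 10 and 20 reads in GW3965. This was 0.208, 0.277, 0.151, 0.154 and 0.181 RPKM in DMSO and 0.345, 0.277, 0.361, 0.184 and 0.402 RPKM in GW3965. GW3965 libraries 1, 3 and 5 lay above all DMSO libraries, library 2 was just above the highest of them, and GW3965 library 4 lay below DMSO libraries 1 and 2. The means were 0.194 ± 0.0516 and 0.314 ± 0.0855 RPKM (exact permutation p = 0.032, unadjusted). Without any of 6 of the 10 libraries this p was above 0.05, and it ran from 0.016 to 0.071 over the alternatives.

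Feedback and signalling proteins gave no call (lowest adjusted p = 0.80). ZC3H12A (Regnase-1), an RNase that degrades cytokine transcripts, was at 2.88, 2.85, 3.29, 2.45 and 2.58 RPKM in DMSO and at 2.89, 3.25, 3.26, 2.94 and 3.22 RPKM in GW3965. All GW3965 libraries lay above the DMSO mean, and the groups overlapped. Its log2 fold change was 0.15 (SE 0.084, 95% interval -0.034 to 0.33). TNFAIP3, the deubiquitinase A20, was at 0.846 ± 0.0656 and 0.933 ± 0.0655 RPKM, with a log2 fold change of 0.13 (SE 0.11). IRAK2, a kinase of the interleukin-1 receptor complex, was at 2.95 ± 0.209 and 2.76 ± 0.353 RPKM.

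BIRC3 (cIAP2), a ubiquitin ligase of TNF receptor complexes, was the highest gene under the limit at 0.463 RPKM. It had from 87 to 149 reads in DMSO and from 114 to 167 in GW3965. Its means were 0.405 ± 0.0663 and 0.520 ± 0.101 RPKM (exact permutation p = 0.087), and with voom on genes of at least 10 reads the log2 fold change was 0.34 (SE 0.16, adjusted p = 0.78). TRAF1, an adaptor of the same complexes, had 146 reads in each group.

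Of the effectors, ICAM1, the adhesion molecule bound by leucocyte integrins, was the highest. It was at 18.9, 19.0, 20.6, 20.9 and 15.9 RPKM in DMSO and at 21.5, 21.3, 20.1, 20.003 and 19.7 RPKM in GW3965. All GW3965 libraries lay above the DMSO mean, and the groups overlapped. Its log2 fold change was 0.11 (SE 0.075, 95% interval -0.055 to 0.27, adjusted p = 0.85). ICAM1 overlaps 2 annotated genes on the opposite strand, and 21.2% of its stretches of 50 bases were shared with other genes. The setting by which the counting used the strand is not given in the sources used here. SOD2, the mitochondrial superoxide dismutase, was at 4.501 ± 0.517 and 4.59 ± 0.352 RPKM, and 14.4% of its stretches of 50 bases were shared with other genes. TNFAIP2 was at 4.53 ± 0.635 and 4.20 ± 0.306 RPKM. PTGS2 (cyclooxygenase-2), the inducible enzyme of prostaglandin synthesis, had from 0 to 5 reads per library.

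**Figure D3:**
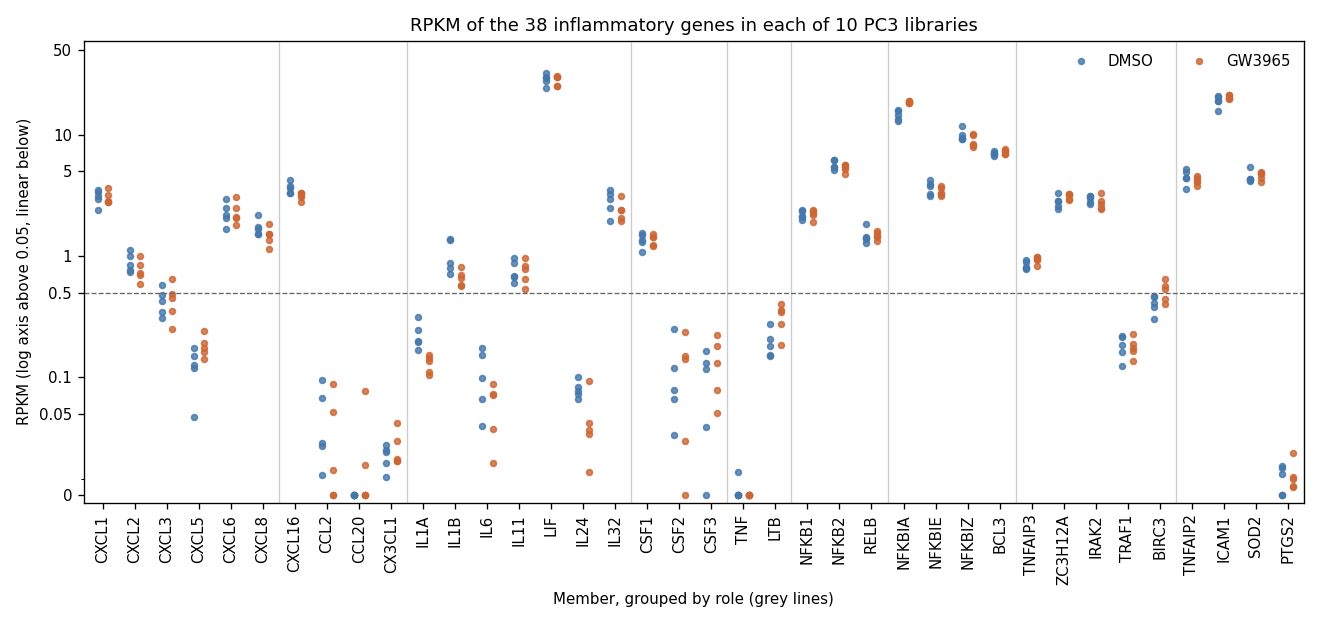
Each point is the RPKM of a gene in a library, DMSO in blue and GW3965 in orange, for the 38 genes grouped by role, on an axis that is logarithmic above 0.05 RPKM and linear below. The dashed line marks 0.5 RPKM. LIF, ICAM1 and NFKBIA are the highest, and TNF, CCL20 and PTGS2 lie at or near 0.

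In the order of mean levels, LIF at 28.6 RPKM was followed by ICAM1 at 19.8, NFKBIA at 16.6, NFKBIZ at 9.47, BCL3 at 7.16 and NFKB2 at 5.54 RPKM. The ranges over the 10 libraries did not overlap between LIF and ICAM1, NFKBIA and NFKBIZ, NFKBIZ and BCL3 or BCL3 and NFKB2. Those of ICAM1 and NFKBIA overlapped. From NFKB2 down to IL11 at 0.757 RPKM, the range of each tested gene overlapped that of the next, except that all libraries of CSF1 lay above those of TNFAIP3. Of the 16 inhibitors, subunits, signalling proteins and effectors, 13 were above the limit, and of the 22 ligands, 10 were.

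At lower levels, the recovered reads were used. With voom applied to genes that averaged 10 reads or more, 30 of the 38 genes were tested. NFKBIA passed the threshold (adjusted p = 0.043), as did 0.245% of all 24105 genes. At an unadjusted p under 0.05 there were 5 of the 30 genes, against 6.33% of all. These were NFKBIA and BIRC3, which were higher, and IL1B, IL1A and CXCL16, which were lower. Of the 18 tested genes with a promoter window, the 9 with a kappaB match had a median log2 fold change of 0.017 (-0.22 for IL32 to 0.36 for NFKBIA) and the 9 without one of -0.087 (-0.53 for IL1B to 0.15 for ZC3H12A). The difference between them was not tested.

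The rest of the pathway gave no call either, and its parts differed in level. Of its 15 kinase and ubiquitin genes, 14 were above the limit, but of the 17 receptors of the ligands only 4 were. The 55 genes listed were receptors, adaptors, kinase and ubiquitin genes, other subunits and inhibitors, and receptors of the ligands. The list also held 4 other pathway genes, IL1RN, IL18, ADAM10 and ADAM17. Of the 55 genes, 35 were tested, 22 with a higher and 13 with a lower mean. None passed the threshold with limma, or with voom on the 43 of them that averaged 10 reads or more, and 2 had an unadjusted limma p under 0.05, both higher (4.64% of all tested genes were). With voom, 4 of the 43 had such a p, against 6.33% of all genes. The median log2 fold change was 0.033. IRAK1 was at 73.0 ± 6.597 and 71.1 ± 5.82 RPKM, and RELA, the main activating subunit, at 14.9 ± 1.18 and 14.4 ± 0.848 RPKM. The receptors TNFRSF1A and LTBR were at 18.1 and 17.3 RPKM in DMSO, while IL1R1, at 18 to 37 reads per library, and TLR2 and TLR3 were under the limit.

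IL6R, the ligand-binding chain for IL6, was the first of the 2 pathway genes with a limma p at that level. It was at 1.27, 1.25, 1.38, 1.67 and 1.45 RPKM in DMSO and at 1.70, 1.69, 2.06, 2.05 and 1.97 RPKM in GW3965. The groups did not overlap, as for 1.35% of all tested genes, although the highest DMSO library was close to the lowest GW3965 library. Its log2 fold change was 0.41 (SE 0.10, limma adjusted p = 0.22; exact permutation p = 0.0079). IL18, a relative of IL1B, was the other, at 10.2 ± 1.63 and 12.3 ± 0.941 RPKM with overlapping groups (log2 fold change 0.28, SE 0.10, limma adjusted p = 0.56; exact permutation p = 0.040). Among the receptors of the ligands, CXCR6 had the lowest log2 fold change of the 35 tested genes, -0.12 (SE 0.13), while CCR2 and CCR6 had 0 reads and CXCR1, CXCR2 and CX3CR1 at most 3 reads in a library. LIFR and IL6ST, which together bind LIF, were at 4.83 and 9.97 RPKM in DMSO.

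The 6 neutrophil-attracting CXC chemokines lie on chromosome 4 beside ligands of the EGF receptor, and of the whole cluster AREG alone passed the threshold. From CXCL8 to BTC, the 14 genes of the cluster were listed, and 8 were tested. AREG (amphiregulin, chr4:74445134-74455009, plus strand, GRCh38) had 5.23 ± 0.410 RPKM in DMSO and 11.8 ± 1.35 RPKM in GW3965 (log2 fold change 1.15, SE 0.090, limma adjusted p = 0.00021). BTC (betacellulin) was at 1.02 ± 0.220 and 1.34 ± 0.119 RPKM (log2 fold change 0.38, SE 0.14, adjusted p = 0.58). Nearer to the chemokines, EPGN (log2 fold change 0.0067, SE 0.17) and MTHFD2L (-0.079, SE 0.086) did not pass. EREG, on the same side and the nearest gene of the cluster to AREG (80.0 kb between starts), was under the limit and not tested. It had from 15 to 30 reads per library. The start of CXCL2, the nearest chemokine, was 346 kb and that of CXCL8 705 kb from the start of AREG. The chemokines PF4V1, PF4 and PPBP of the same cluster were listed at 0 in all libraries.

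The genes also varied among libraries of the same condition. In DMSO library 3, 20 of the 23 tested genes (87.0%) lay above their group mean, against 53.1% of all tested genes. In DMSO library 5, 1 of the 23 did (4.35%), against 48.5% of all. IRAK2 was that gene. DMSO libraries 1, 2 and 4 had 8, 13 and 12 genes above the mean, and the GW3965 libraries from 10 to 16, the highest in GW3965 library 5. On the log2 scale, IL1B ran from -0.43 in DMSO library 1 to 0.44 in DMSO library 2 around its group mean, and IL32 from -0.49 in DMSO library 1 to 0.34 in DMSO library 3. The coefficient of variation of NFKBIA was 9.24% in DMSO and 1.78% in GW3965. DMSO library 5 held the lowest value of NFKBIA and DMSO library 4 the highest DMSO value. No batch is named in the labels, so no value within batches can be given.

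**Figure D4:**
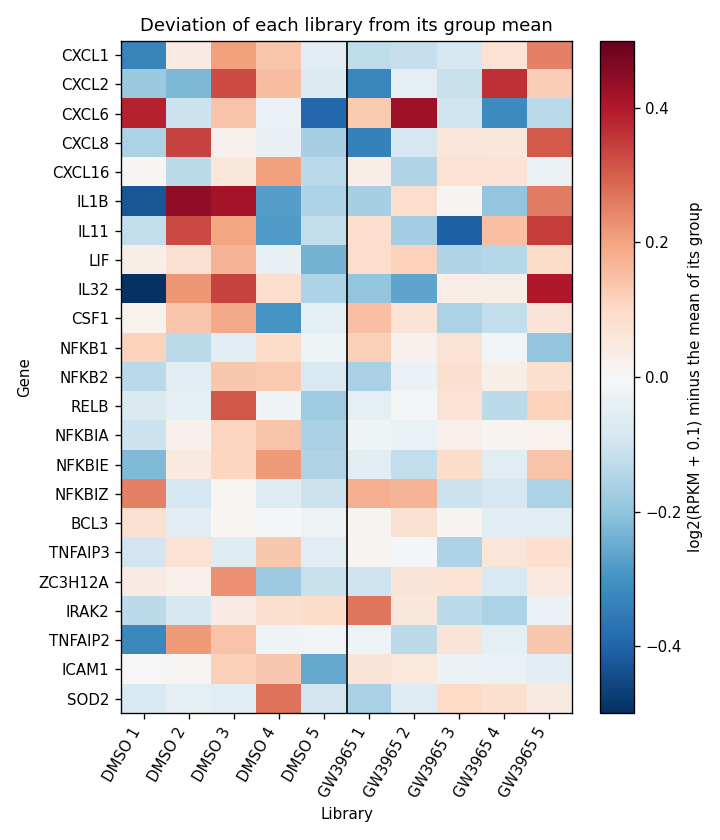
Each cell shows log2(RPKM + 0.1) of a gene (row) in a library (column) minus the mean of its own condition, from blue (lower) to red (higher). DMSO library 3 is mostly red, with 20 of 23 genes above the mean, and DMSO library 5 mostly blue, with 1 of 23.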

How the data were processed

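RNA of 10 PC3 libraries, 5 with DMSO and 5 with GW3965, was grouped by the sample titles. The methods describe ribosome-depleted total RNA in stranded libraries with single reads of 50 bases, while the labels name polyA RNA. Per the submitters' processing notes, HISAT2 2.1.0, HTSeq 0.11.2 and DESeq2 1.22.2 were used with hg38, and the methods name a mouse genome, although all listed identifiers are human. The authors deposited RPKM values of 62656 genes (15119 at 0 in all libraries). The reads behind them were recovered from the steps of the values, and 100% of values above 0 came out whole (tolerance 0.0001 reads). The 95% intervals are limma's, from the spread between libraries, and limits set by a count of 0 cover counting error only.

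The RPKM values were tested as log2(RPKM + 0.1), which understates changes of low genes, with limma 3.58.1 in R 4.3.3 (lmFit, eBayes with a trend, two-sided) over 20402 genes that averaged 0.5 RPKM or more. P-values were adjusted after Benjamini-Hochberg, with a threshold of 0.05. The 14 genes under this limit that had more than 3 reads in a library were compared by exact permutation tests over all 252 labellings (two-sided), unadjusted. Exact p-values printed for genes above the limit come from the same test and are also unadjusted. Gene lists were described by counts and medians only. Some marker genes that were looked at are not reported here. The genes and lists were chosen with earlier results of these data known. Of the 38 genes, values of every library are given for those with an unadjusted limma p under 0.05 and for the highest of each of 9 roles. They are also given for IL1A, IL6 and IL6R, which were chosen after their values were seen. Genes of the other lists were named if they had such a p or stood at an end of their list. Positions and overlaps were taken from GENCODE 29 (GRCh38), promoter windows from RefSeq (GRCh38.p14).

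The test was checked on simulated reads in 10 runs for GW3965 against DMSO over 20402 genes. The same spread beyond counting error was assumed for every gene, which the real genes need not have. Changed genes were recovered in 110 of 669 cases (16.4%) for a log2 fold change of 0.5, in 533 of 664 for 1 and in 641 of 667 for 2. Of 1346 calls, 62 fell on genes left unchanged. As alternatives, the pseudocount was set to 1 or 0.01, the filter was dropped or raised to 1 RPKM, and the following were tried: quantile normalization, rescaling to a sum of 1000000, no trend, library weights, the replicate number as a block, the first principal component as a covariate, voom on the reads, and the loss of each library. Voom on genes that averaged 10 reads or more was added after the data were seen.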

Additional observations from a re-analysis of the deposited data

Results flagged for a closer look

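SOD2 was far from the other libraries in DMSO library 4, at 5.42 RPKM against 4.20 to 4.32 RPKM in the other DMSO libraries. The gap to the nearest library was 0.884 of the whole range of the group on the scale of log2(RPKM + 0.1) (Dixon's 95% critical value for 5 libraries is 0.71). It was the only such case in 46 groups checked, of which chance alone flags about 1 in 20, that is 2.3. The log2 fold change of SOD2 was 0.032 with all libraries and 0.099 without this one, and its adjusted p stayed above 0.05 in all alternatives run.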

How the results depend on the processing

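No member passed the threshold in the test as set, and 1 did, NFKBIA, with quantile normalization, library weights, the first principal component as a covariate, voom on the reads, and voom on genes that averaged 10 reads or more (chosen after seeing the data). Leaving out 1 library gave from 0 to 1, the 1 without DMSO library 4. The log2 fold change of NFKBIA ran from 0.32 to 0.40. With the replicate number as a block, 2 of the 4 LXR target genes passed in place of 4, and 16 of all genes in place of 32. Deviations of same-numbered libraries correlated from -0.14 to 0.16, and 2 of 5 GW3965 libraries correlated best with their own number, so the numbers do not show a pairing. Over all genes, 63 passed with voom, 59 with voom on genes of at least 10 reads, 83 with the first principal component, 56 with library weights, 20 without a trend, 21 without a filter, and from 17 to 38 without 1 library. Rescaling to a common sum shifted the median of all genes by 0.13, and changes were then read relative to it. No count for the pathway or the chromosome 4 cluster changed. Members with an unadjusted p under 0.05 numbered from 1 to 5.

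Genes near zero changed sign when a library was left out. Their ranges were -0.087 to 0.048 for CXCL1, -0.085 to 0.12 for CXCL6, -0.10 to 0.085 for IL11, -0.086 to 0.015 for LIF, -0.057 to 0.065 for CSF1, -0.015 to 0.066 for NFKB1, -0.017 to 0.10 for RELB, -0.13 to 0.15 for CXCL3, -0.088 to 0.047 for TRAF1, -0.021 to 0.051 for PTGS2 and -0.24 to 0.20 for CSF2. CSF2 also reached 0.0010 with a pseudocount of 1, IL11 0.011 with quantile normalization, and CSF1 -0.075 and CXCL6 -0.0052 with library weights. Without 1 library, CXCL8 ran from -0.30 to -0.14, IL32 from -0.34 to -0.13, CXCL2 from -0.28 to -0.11, NFKBIZ from -0.20 to -0.096 and ICAM1 from 0.046 to 0.14, and none of these passed. A pseudocount of 1 took IL1B from -0.53 to -0.27, since a larger pseudocount shrinks the fold of low genes. The other causes were not tested. In simulated reads, 16.4% of changes of 0.5 (log2) were recovered, so under that setting smaller changes of single genes would mostly be missed. The setting gave every gene the same spread beyond counting error, so this share is not a measured power of these libraries.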
